A study of Bos taurus with 39 samples.

Results

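Predicted miR-672, miR-432, miR-137, miR-879 and miR-321 were followed over all 39 miRNA libraries of bovine oocytes. These 5 are rows of the table of predicted miRNAs, chosen by name, and make up 5 of the 965 predicted and 1030 known miRNAs, 1995 in all. The names came from contrasts of denuded oocytes (DO) in these same libraries. Here DO against co-culture at 6 h was counted as choosing miR-672, miR-432 and miR-137. DO against control at 22 h was counted as choosing miR-672, miR-432, miR-879 and miR-321. Of these 5, the study listed only miR-672 and miR-137 in the first contrast, and miR-432 only in the second. In those contrasts, and in every other one that uses the same group of libraries, the values are a description and carry no test. The libraries at 1, 6 and 22 h were made from pooled bovine oocytes matured in vitro. Control oocytes matured inside the intact cumulus-oocyte complex (COC) for 1, 6 or 22 h, and 3 further control libraries are labelled 0 h. The CBX oocytes matured in COCs exposed to carbenoxolone, which blocks gap junctions. Co-culture (cocult) paired DOs with COCs across a porous insert without contact. The study's discussion describes the co-culture profiles as those of the denuded oocytes. DO were stripped of cumulus cells before maturation and cultured alone. Each group held 3 libraries at each time point, numbered as replicates 1 to 3. By the study's methods the zona was removed from DO with pronase after maturation, while COCs were stripped of cumulus cells with hyaluronidase, so in DO against control this handling and the absence of cumulus cells during maturation cannot be told apart.

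The cumulus cells that surround a mammalian oocyte reach it through long projections ending in gap junctions, and small molecules pass between both cell types along this route. A miRNA is a short RNA, cut from a hairpin precursor, that guides Argonaute to messenger RNAs, mainly through its seed, bases 2 to 8, and lowers their translation or stability. A predicted miRNA is different from a catalogued one: a program proposed it from reads that stacked on a hairpin-like stretch of the genome. No function is known for these 5, and their numbers are running numbers of the prediction. They do not mark kinship to known miRNAs with the same number. The catalogued bta-miR-432 had 17 counts over the 39 libraries and bta-miR-137 had 0, and neither was used here.

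The mature sequences are printed because a predicted miRNA is identified by its sequence and not by its running number, and the capitals mark the seed. They were taken from the study's list of 18 predicted sequences and read 5′ to 3′.
predicted miR-672: gACCGAAGuggggaaagg
predicted miR-432: uGCGGGAUcuuuaguugugg
predicted miR-137: uGCCAAUUcaggggacacggguuug
predicted miR-879: uCUGCUGGaacugcaacu
predicted miR-321: uCAGACGGuaaagcaucugccug
All 5 seeds differed, and none was shared with another of the 18 listed sequences. That list pairs 4 of them with a catalogued miRNA of the same seed, chi-miR-3432-5p for miR-432, mml-miR-192-3p for miR-137, hsa-miR-3692-5p for miR-879 and mmu-miR-12184-3p for miR-321, and miR-672 with none. Lengths ran from 18 nt in miR-672 and miR-879 to 25 nt in miR-137, and the share of G and C from 50.0% in miR-432 and miR-879 to 61.1% in miR-672. The hairpins lie on 5 chromosomes of ARS-UCD1.2. That of miR-672 is at chr3:2472195-2472302 on the plus strand, and that of miR-432 at chr21:21809645-21809752, also on the plus strand. On the minus strand are miR-137 at chr13:33386482-33386596, miR-879 at chr8:63779353-63779460 and miR-321 at chr17:26339280-26339394. Whether these hairpins fall in exons or introns was not analysed here.

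The libraries held 11985 to 175429 miRNA counts each, with a median of 70069. In 3 libraries the total was under 25000: control 0 h replicate 1, control 6 h replicate 1 and CBX 22 h replicate 2. Of the 5 miRNAs, 4 were sparse, with 653 counts in all for miR-672, 950 for miR-432, 565 for miR-137 and 742 for miR-879, or medians of 13 to 18 counts per library. Predicted miR-321 had 5588 counts and a median of 128. Only miR-879 had a library with no count, control 6 h replicate 1, where a count of 0 allows up to 3 counts. Levels below are in CPM, the usual count of a miRNA relative to its library's total, with library sizes scaled by TMM, the trimmed mean of M-values, over all 39 libraries. Differences are log2 fold changes with their standard errors (SE).

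**Figure D1:**
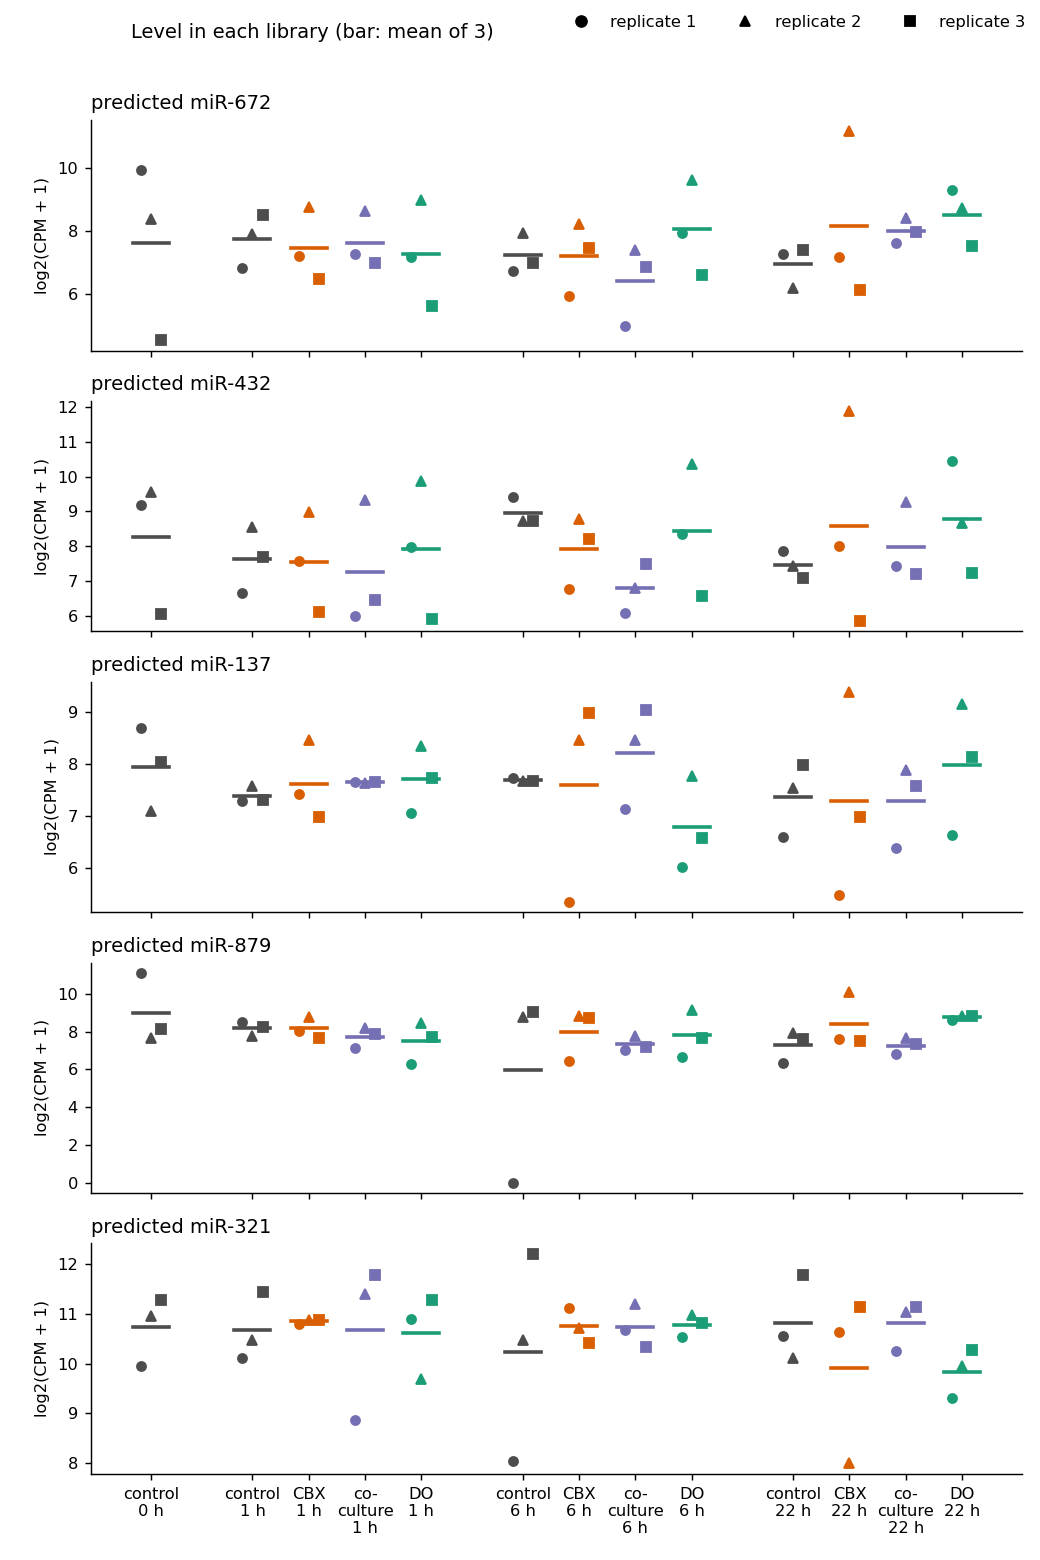
Level of each predicted miRNA in every library, as log2(CPM + 1), by group and time of maturation, with 1 point per library shaped by replicate number and a bar at the mean of the 3 logged values. At 22 h the 3 DO points of miR-879 sit close together above the control and co-culture points, while CBX 22 h replicate 2 is the highest of the 39 libraries for miR-672, miR-432 and miR-137.

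At 6 h, miR-672 and miR-432 were both higher in DO than in co-culture. Predicted miR-672 had 42, 47 and 7 counts in DO replicates 1, 2 and 3 and 5, 9 and 7 in co-culture, or 375 ± 363 against 103 ± 67.8 CPM (SD, n = 3). Replicates 1 and 2 of DO lay above all co-culture libraries, and replicate 3 lay among them. The log2 fold change was 1.93 (SE 0.42). Predicted miR-432 had 56, 78 and 7 counts in DO and 11, 6 and 11 in co-culture, or 575 ± 641 against 119 ± 56.4 CPM. Again DO replicate 3 lay inside the co-culture range, and the log2 fold change was 1.99 (SE 0.44). These were the only 2 calls among the 423 miRNAs tested in this contrast (0.473%), which is counted as choosing both. The calls are therefore a description and no support. Of 14 alternative settings of the fit, 5 called miR-672, which 2 others did not test, and 5 called miR-432. Predicted miR-137, chosen in the same contrast, was called in 2 of the 14. In 8 of the 14, DESeq2 and the fit with no replicate block among them, no miRNA was called at all. Without replicate 2, the difference of miR-432 was 1.16, and without replicate 3 it was 2.90. In pooled oocytes, fewer cells of a kind and less of a miRNA per cell cannot be told apart. Set against control at 6 h, whose libraries include the shallow replicate 1, miR-672 was 0.90 (SE 0.56) higher in DO. Predicted miR-432 had no settled direction there: its mean was 575 CPM in DO and 511 CPM in control, the fitted value was -0.50 (SE 0.82), and it was 0.15 with no replicate block, 0.090 without replicate 1 and 0.25 without replicate 3. Against CBX the differences were 1.12 for miR-672 and 0.87 for miR-432.

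The same pair was higher in DO than in control at 22 h. Predicted miR-672 had 45, 24 and 11 counts in DO and 19, 5 and 16 in control. As levels these were 413 ± 227 and 130 ± 51.6 CPM (SD, n = 3), and the lowest DO library, at 181 CPM, lay above the highest control library, at 167 CPM. The log2 fold change was 1.57 (SE 0.48), made up of 2.04, 2.55 and 0.12 in the 3 replicate numbers. Predicted miR-432 had 100, 23 and 9 counts in DO and 29, 12 and 13 in control, with overlapping levels. Its log2 fold change of 1.53 (SE 0.50) was 0.71 without replicate 1, whose DO library held 1410 CPM. Of the 445 miRNAs tested in DO against control at 22 h, 0 (0%) were called by edgeR's quasi-likelihood test, with an unadjusted p under 0.05 in 34. This count depended on the fit, with 4 calls by DESeq2, 4 with no replicate block, and 0 to 19 over the 14 alternatives, the highest without replicate 2. Against co-culture at 22 h the values were 0.67 for miR-672 and 1.03 for miR-432, and without replicate 1 they were -0.013 and -0.42.

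In CBX at 22 h the mean of both was decided by 1 library. The shallow CBX replicate 2 had 46 counts of miR-672 in a total of 18796, or 2337 CPM, while replicates 1 and 3 had 143 and 68.1 CPM. For miR-432 the same library had 74 counts, or 3760 CPM, against 254 and 56.7 CPM. With all 3 replicate numbers, DO differed from CBX by 0.15 (SE 0.90) for miR-672 and 0.13 (SE 1.15) for miR-432. Without replicate 2 these were 1.85 and 2.18, without replicate 1 -1.02 and -1.56, without replicate 3 -0.35 and -0.47, and with no replicate block -0.86 and -0.96, so no direction can be given.

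Over the 13 conditions, mean miR-672 ran from 850 CPM in CBX 22 h, 446 in control 0 h, 413 in DO 22 h and 375 in DO 6 h down to 130 in control 22 h and 103 in co-culture 6 h. For miR-432 the order opened with CBX 22 h at 1357 CPM, DO 22 h at 654, DO 6 h at 575 and control 6 h at 511, and it ended with control 22 h at 180 and co-culture 6 h at 119. All 12 neighbouring pairs in each order overlapped. Both low groups of the contrasts that chose them, co-culture 6 h and control 22 h, are thus the last 2 of each order.

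Predicted miR-137 was lower in DO than in co-culture at 6 h. It had 11, 13 and 7 counts in DO and 23, 19 and 32 in co-culture, or 125 ± 81.0 against 336 ± 190 CPM (SD, n = 3). DO was lower in each of the 3 pairs, although DO replicate 2, at 217 CPM, lay above co-culture replicate 1, at 140 CPM. The log2 fold change was -1.41 (SE 0.36), and it was -0.82 against control and -0.91 against CBX. Co-culture 6 h had the highest and DO 6 h the lowest mean of the 13 conditions, so both ends of the order are the groups of the contrast that chose it. In between, 11 of 12 neighbouring pairs overlapped. The exception was control 6 h, at 205 ± 4.64 CPM, just above co-culture 1 h, at 200 ± 1.71 CPM. These rest on 4, 10 and 13 counts and on 16, 20 and 16 counts. Counting error of miR-137 was at least 20.1% in every condition, so this separation lies within it.

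At 22 h, which played no part in choosing miR-137, its level in DO was 98.7, 564 and 280 CPM. Control had 96.7, 185 and 250 CPM and co-culture had 82.7, 235 and 190 CPM. DO was higher in all 3 pairs against both, and the groups overlapped. The log2 fold change was 0.65 (SE 0.40) against control and 0.74 (SE 0.34) against co-culture, with a 95% interval for the latter of -0.04 to 1.52. Against CBX it was 0.51 (SE 0.44). The smallest adjusted p of the 3 was 0.661 (edgeR's quasi-likelihood test), so none passed.

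Predicted miR-879 was higher in DO than in control and co-culture at 22 h. It had 28, 26 and 28 counts in DO, or 438 ± 37.1 CPM (SD, n = 3), against 10, 17 and 19 counts in control, or 174 ± 83.6 CPM. Every DO library lay above every control library, and above every co-culture library, where 16, 12 and 11 counts gave 157 ± 45.5 CPM. The log2 fold change was 1.42 (SE 0.36) against control and 1.50 (SE 0.29) against co-culture. CBX at 22 h had 198, 1118 and 182 CPM, the high value again being the shallow replicate 2, and DO differed from it by 0.28 (SE 0.55), or 1.09 without replicate 2 and -0.27 without replicate 3. The DO libraries at 22 h held 75302, 58547 and 64631 miRNA counts in all, fewer than the control libraries of the same number, at 131920, 74337 and 94375. What part these totals play in the difference was not tested.

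Outside its own contrast miR-879 showed no call. DO at 6 h had 99.1, 568 and 203 CPM and co-culture 128, 220 and 146 CPM, a log2 fold change of 0.48 (SE 0.36). Against control at 1 h the value in DO was -0.66 (SE 0.58). The highest mean of the 13 conditions, 904 CPM in control 0 h, rested on replicate 1, with 2222 CPM from 27 counts, next to 205 and 285 CPM. The change from 0 to 1 h in control was -0.92 (SE 0.62), and 0.08 without replicate 1. The lowest means were 165 CPM in co-culture 6 h and 157 CPM in co-culture 22 h, and all 12 neighbouring pairs in the order overlapped.

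Predicted miR-321 was lower in DO than in control at 22 h, where the other 4 were higher. It had 45, 56 and 75 counts in DO and 187, 78 and 338 in control, or 951 ± 301 against 2046 ± 1292 CPM (SD, n = 3). DO was lower in all 3 pairs, and the highest DO library, at 1233 CPM, lay above control replicate 2, at 1112 CPM. The log2 fold change was -1.01 (SE 0.29). Co-culture, with 177, 125 and 155 counts, gave -0.99 (SE 0.16) and differed by a similar amount in each pair, -0.94, -1.09 and -0.88. Against CBX the value was -0.43 (SE 0.57), -1.14 without replicate 2 and 0.16 without replicate 1. Replicate 2 of CBX is the library whose 5 counts of miR-321 gave the lowest level of the 39 libraries. DO 22 h had the lowest mean of the 13 conditions, followed by CBX 22 h at 1363 CPM, while the other 11 lay between 1743 and 2238 CPM. At 6 h the DO libraries, at 1475, 2022 and 1800 CPM, lay inside the range of the other 9.

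**Figure D2:**
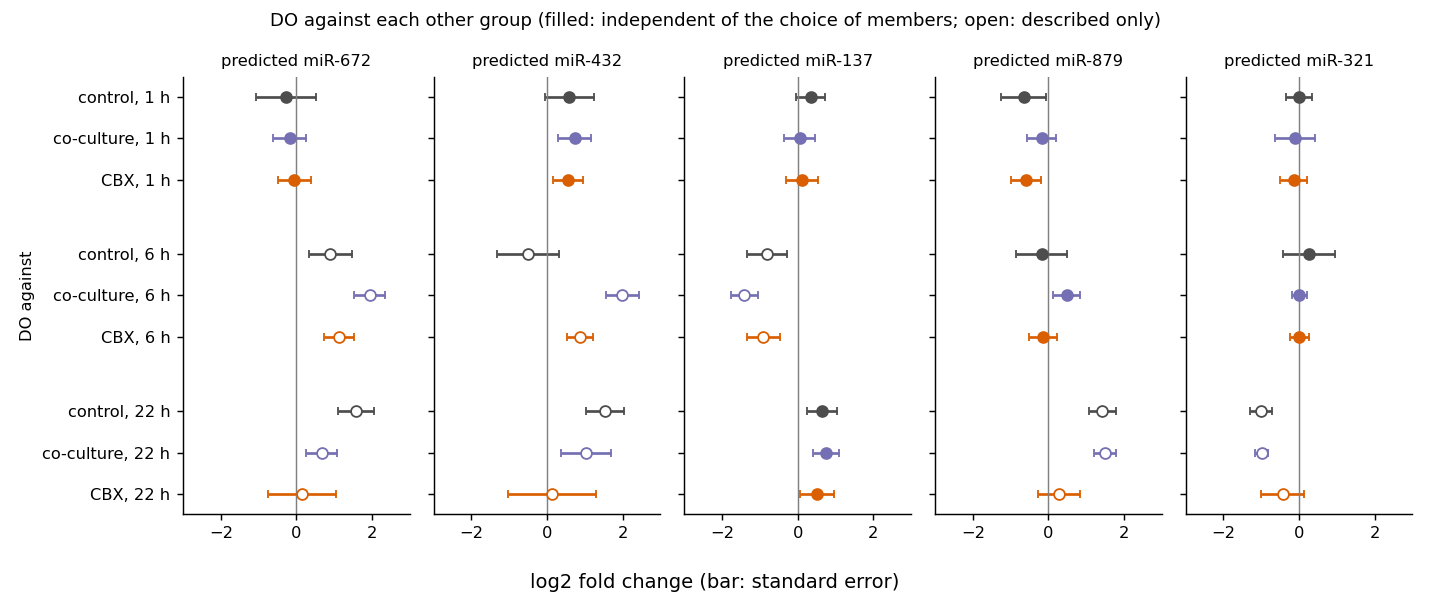
Log2 fold change of DO against each other group at 1, 6 and 22 h for the 5 predicted miRNAs, with bars for 1 standard error. Open points belong to libraries that helped choose the member and are a description; among the filled points, which run from -0.66 to 0.74, none was called.

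Comparisons that share no group of libraries with the choice gave no call for any of the 5. There were 53 such tests, with an unadjusted p under 0.05 in 1 and 0 calls by edgeR's quasi-likelihood test, and with an unadjusted p under 0.05 in 2 and 0 calls by DESeq2. The threshold was an adjusted p under 0.05 and a log2 fold change of at least 1 in size. At 1 h, DO was set against control, co-culture and CBX for all 5, and the 15 differences lay between -0.66 and 0.73. The largest was miR-432 against co-culture, 0.73 (SE 0.44, 95% interval -0.22 to 1.68, adjusted p = 0.979). Of all miRNAs tested, 0% were called in DO against control and against co-culture at 1 h, and 1.46% against CBX. At 6 h the 6 differences of miR-879 and miR-321 lay between -0.18 and 0.48, where 0% of all miRNAs were called against control and 2.35% against CBX. At 22 h only miR-137 could be tested, with a background of 0% against co-culture and 0.232% against CBX.

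The comparisons without DO did not call any member either. In 9 tests of CBX against control at 6 h and CBX against co-culture at 22 h, the background was 0% in both. CBX against co-culture at 22 h held the single unadjusted p under 0.05, for miR-879, with a log2 fold change of 1.27 (SE 0.50) and an adjusted p of 0.717 (edgeR). By replicate number the differences of miR-879 were 0.84, 2.47 and 0.17, the largest with the shallow CBX replicate 2. The same comparison gave 0.57 (SE 0.89) for miR-672, and -0.93 without replicate 2. For miR-432 it gave 1.11 (SE 0.72). Predicted miR-672 had too few counts to be tested in CBX against control at 6 h. Over time, 20 tests covered control from 0 to 1 h and from 1 to 6 h, and CBX and co-culture from 1 to 22 h, with 0% of all miRNAs called in each. The 20 differences lay between -0.92 and 1.32, and the smallest adjusted p was 0.409 (edgeR). Control miR-432 was at 228 ± 140 CPM at 1 h and 511 ± 151 CPM at 6 h (SD, n = 3), a difference of 1.25 (SE 0.58) that did not pass, with an adjusted p of 0.930 (edgeR).

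When the 3 DO libraries were set against the other 9 of their time point, with labels permuted within replicate number, no difference passed. In this exact two-sided permutation test of 64 arrangements, the smallest possible p is 0.0156, which after adjustment over 8 tests would be 0.125 for a single miRNA, so 1 difference alone could not pass. The log2 differences at 1 h were -0.36 for miR-672, 0.44 for miR-432, 0.16 for miR-137, -0.54 for miR-879 and -0.11 for miR-321. At 6 h miR-879 differed by 0.73 and miR-321 by 0.20, and at 22 h miR-137 differed by 0.66. The 0.73 leans on the 0 count of miR-879 in control 6 h replicate 1. Mean levels of miR-879 at 6 h were 290 CPM in DO and 270 CPM in the other 9 libraries. The smallest p was 0.141 in the exact test, for miR-137 at 22 h. After adjustment over the 8 tests it was 0.732. Levels of DO at 1 h overlapped the other groups for all 5.

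Predicted miR-672 and miR-432 varied together from library to library. The Spearman correlation of their levels over the 39 libraries was 0.79, the highest for either among the 450 other miRNAs with at least 390 counts in all. After the mean of each condition was subtracted, Pearson's r over the 39 log2 values was 0.88, while over the 13 condition means the Spearman correlation was 0.55. The libraries share depth, replicate number and scaling, so these values are a description. The longest run of bases that both sequences printed above share is 4 nt, and their hairpins lie on different chromosomes. Counts of miR-432 exceeded those of miR-672 in 25 of 39 libraries, with a median ratio of 1.53 and a range of 0.417 to 6.5.

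**Figure D3:**
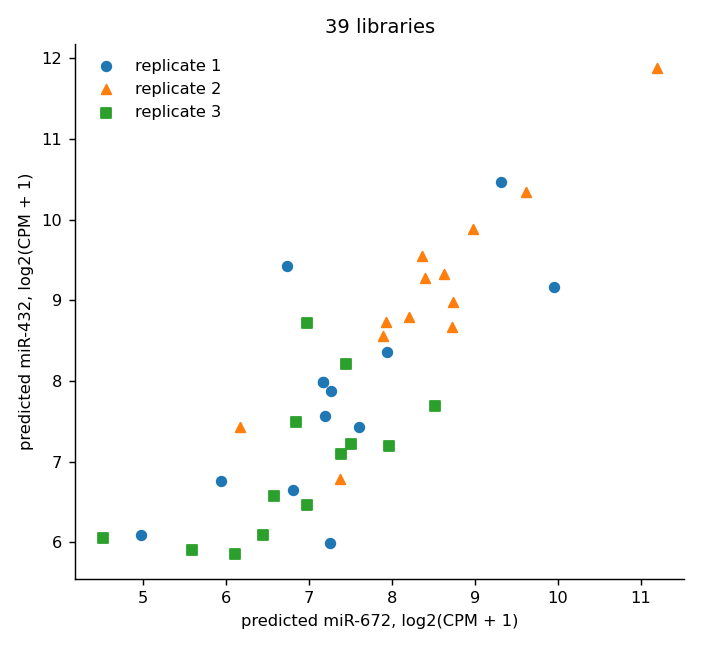
Level of miR-432 against that of miR-672, both as log2(CPM + 1), in 39 libraries with symbols by replicate number. Most replicate 2 libraries sit at the upper right and most replicate 3 libraries at the lower left, with CBX 22 h replicate 2 at the far upper right.

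The replicate number moved with the levels of all 5. Replicate 2 was the highest of the 3 in 9 of 13 conditions for miR-672, miR-432 and miR-879, and in 7 for miR-137. Replicate 3 was the highest in 10 of 13 for miR-321 and the lowest in 9 of 13 for miR-432. Median levels of miR-432 were 234, 505 and 135 CPM in replicates 1, 2 and 3. Library totals also differed between replicate numbers, for example 91725, 18796 and 87344 counts in CBX 22 h. The parts of depth and replicate number in these levels were not separated. Within a condition the coefficient of variation over the 3 libraries had a median of 66.4% for miR-672, 85.2% for miR-432, 50.9% for miR-137, 48.2% for miR-879 and 42.1% for miR-321. Counting error alone gives medians of 25.0%, 22.2%, 27.1%, 23.1% and 8.10% in the same order.

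Among the other pairs of members no Spearman correlation exceeded 0.58, which was that of miR-137 and miR-879. The miRNAs closest to miR-137 over the 39 libraries, by Spearman correlation, were predicted miR-80 (0.79), the catalogued bta-miR-10a (0.72) and predicted miR-662 (0.71). For miR-879 they were predicted miR-484, miR-486 and miR-504, each at 0.68 with the same counts in every library. Predicted miR-254 (0.71), miR-242 and miR-243 (both 0.61) were closest to miR-321. After miR-432, the closest to miR-672 were predicted miR-39 (0.65) and miR-867 (0.64), and after miR-672 the closest to miR-432 were predicted miR-8 (0.71) and miR-85 (0.70).

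Counts of 4 of the 5 did not follow the total of the library. The Spearman correlation of raw count and total miRNA count over the 39 libraries was 0.03 for miR-672, -0.03 for miR-432, 0.06 for miR-137 and -0.04 for miR-879, against 0.70 for miR-321. Over the 451 miRNAs with at least 390 counts, the median of this correlation was 0.80, its interquartile range was 0.70 to 0.88, and 22 of them (4.88%) were under 0.1, a limit set after the values were seen. Put as levels, miR-137 had a Spearman correlation of -0.77 with the library total and miR-879 of -0.61, where the total is also the divisor. Without the 3 shallow libraries these were -0.75 and -0.67, and the raw counts still gave -0.09 and -0.04. At 6 h the DO libraries had more counts in all than the co-culture library of the same number, with 175429, 57094 and 77656 against 165238, 54069 and 61906, and at 22 h they had fewer than control. Their part in these differences was not tested either.

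**Figure D4:**
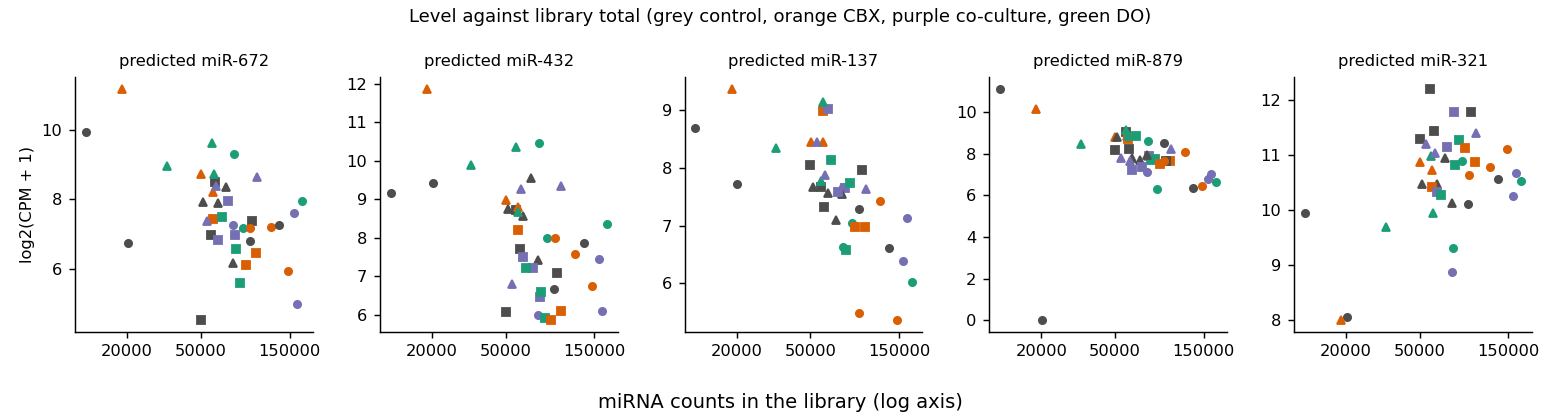
Level of each predicted miRNA as log2(CPM + 1) against the miRNA counts of the library on a log axis, 1 point per library, coloured by group and shaped by replicate number. Points of miR-137 and miR-879 descend towards larger libraries (Spearman correlation -0.77 and -0.61), and those of miR-321 do not (0.19).

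Markers of other cells were read beside these contrasts. Of 10 miRNAs listed for granulosa and cumulus cells, 9 had counts, and bta-miR-212 was at 0 in all libraries. Their summed level at 22 h was 15915 to 27407 CPM in control, 11000 to 19005 in DO, 10412 to 12712 in co-culture and 9835 to 12958 in CBX. At 6 h it was 7266 to 9892 CPM in DO and 6480 to 11709 in co-culture. The 6 blood-cell miRNAs all had counts, but unevenly. Over all libraries bta-miR-150 had 1318 and bta-miR-223 had 206. The counts of bta-miR-486, bta-miR-142-5p, bta-miR-451 and bta-miR-144 were 57, 22, 17 and 7. Together the 6 summed to 352 to 3091 CPM in DO at 6 h. The library at 3091 CPM was replicate 2, with the most miR-672 and miR-432 of that group. In co-culture at 6 h the 6 blood-cell miRNAs summed to 390 to 650 CPM. At 22 h they summed to 592 to 740 CPM in DO and 479 to 596 in control. Their part in the differences was not tested. No miRNA was taken to define the oocyte.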

How the data were processed

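The study sequenced small RNA of oocytes with a kit that adds a unique molecular identifier to each read. The authors trimmed and deduplicated the reads (UMI-tools 1.1.2 and FastQC 0.11.9 in the submitters' processing notes), aligned them to ARS-UCD1.2, and assigned them to known miRNAs or to miRNAs predicted with miRPro. The deposited values are raw counts per mature miRNA, not normalized by the authors. The sources used here do not give how reads matching several miRNA copies were assigned. Known and predicted tables were joined. Sequences and hairpin positions came from the study's supplement.

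Each comparison used its own 6 libraries in edgeR 4.0.16 (limma 3.58.1, R 4.3.3). The steps were filterByExpr (minimum count 10, minimum total 15), TMM and a quasi-likelihood F-test with the older edgeR behaviour. The replicate number was a block, standing in for the ovary pool of the study's methods, a link that the labels do not give. Benjamini-Hochberg adjustment covered all miRNAs tested. DESeq2 1.42.0 was an alternative. The procedures were tested on simulated counts of DO against control at 1 h. There edgeR recovered 40% of changes of 1 log2 and 93.3% of changes of 2 log2. All simulated miRNAs had the same spread, so the recovery for members as variable as these is not known. P-values measure the spread between these pooled libraries, and floors of 3 counts cover counting error only. The permutation test used log2(CPM + 1), as did the correlations. On that scale the added 1 shrinks the fold of a sparse miRNA, while a library with a count of 0 can enlarge a difference. Other miRNAs were named by rule: the 3 most correlated with each member, any with equal counts, and any of the 18 listed sequences with a shared seed. There were 0 with equal counts and 0 with a shared seed, and the seeds of known bovine miRNAs were not read. Naming bta-miR-432, bta-miR-137, bta-miR-212, bta-miR-3432a and the single blood-cell miRNAs fell outside this rule. Members and lists were chosen with earlier results of these data known.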

Additional observations from a re-analysis of the deposited data

Results flagged for a closer look

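Predicted miR-137 in DO against co-culture lay on opposite sides at the later time points. At 6 h the log2 fold change was -1.41, with DO lower in all 3 pairs of libraries, and at 22 h it was 0.74, with DO higher in all 3 pairs. The groups overlapped at both times. The 22 h value did not pass (adjusted p = 0.661, edgeR's quasi-likelihood test) and was 0.44 without replicate 2. The 6 h contrast chose this miRNA, so the difference between the time points was not tested.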

How the results depend on the processing

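The counts of members called outside the contrasts that chose them were 0 in all 5 groups of comparisons under every alternative of the edgeR fit run, DESeq2 and the fit with no replicate block (0 calls) among them. The permutation tests also gave 0, but with 1 replicate number left out their smallest p is 0.0625, so those counts say nothing of stability. The replicate numbers were taken as ovary pools. After each group's mean was subtracted, same-numbered libraries correlated by 0.19 in the median over 15 comparisons (0.07 to 0.40). In 3 of 15 every pair exceeded 0.1. Libraries of different numbers gave -0.10, but subtracting a mean of 3 libraries largely fixes that value, so it is no evidence of pairing. Of 577 alternative values, 26 turned in sign, 17 of them in contrasts given without a test, all against CBX or co-culture at 22 h or for miR-432 against control at 6 h. With library sizes from deduplicated read totals, which shift the median of all miRNAs by -0.67 to 0.43, CBX against co-culture at 22 h for miR-672 was -0.25, and miR-137 in DO at 1 h against the other 9 libraries was -0.070. Leaving out 1 replicate number gave -0.93 to 1.40 for miR-672 in CBX against co-culture at 22 h, where replicate 2 was decisive, and for miR-879 -1.29 to 0.055 in DO against control at 1 h, -0.036 to 0.95 in DO against co-culture at 6 h and -1.41 to 0.079 in control from 0 to 1 h. In DO at 1 h against the other 9 libraries it gave -0.91 to 0.0022 for miR-879, -0.66 to 0.45 for miR-321 and -0.82 to 0.32 for miR-672. The contrasts that chose the members ranged, without 1 replicate number, from 1.71 to 2.60 for miR-672 (not tested without replicate 1, too few counts), 1.16 to 2.90 for miR-432 and -1.79 to -0.85 for miR-137 at 6 h, and from 1.21 to 2.22 for miR-672, 0.71 to 2.04 for miR-432, 1.04 to 1.69 for miR-879 and -1.39 to -0.71 for miR-321 at 22 h. The causes were not tested. For 4 of the 5, median counts of 13 to 18 per library leave a median counting error of 22.2% to 27.1% of the level. The median spread between their replicates was larger, at 48.2% to 85.2%.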

Other observations

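The catalogued bta-miR-3432a, looked at because the study's list pairs the seed of predicted miR-432 with chi-miR-3432-5p, and only after the values were seen, had 13257 counts. Its Spearman correlation over the 39 libraries was 0.31 with predicted miR-432 and 0.47 with predicted miR-672. At 22 h it held 9547, 7257 and 7251 CPM in DO, 4415, 5390 and 2687 in control, 5150, 7361 and 6050 in co-culture and 5337, 15702 and 5662 in CBX, so DO overlapped co-culture and CBX but not control. At 6 h DO, at 3136, 4294 and 4046 CPM, overlapped all other groups. No test was run on it.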
